A study of Homo sapiens with 24 samples.

Results

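Cells of the J82 bladder cancer line labelled CD44 High were compared with the parental J82 cells, gene by gene, in 6 of the 24 RNA-sequencing libraries of the study: 3 CD44 High and 3 parental libraries, taken by their column names in the deposited table of read counts. The other libraries held the J82 groups CD44 Low and CD44v6 and the same 4 groups in RT-112, a second human bladder cancer line. J82 is an established human line; per the labels, the parental cells served as the control for CD44 and CD44v6 expression, and the CD44 High line was newly established from the study and shows high expression of the CD44 receptor. The labels give no agent, selection marker, vector or culture condition that would set the groups apart, do not say whether the CD44 High line was 1 clone, and name the 3 libraries of each group biological replicates without saying that they were separate cultures. The p-values below therefore measure the spread between libraries of a group, which may be partly technical. That spread was estimated jointly over the 12 J82 libraries, CD44 Low and CD44v6 included. The groups differed in it: the coefficient of variation beyond counting noise was 0.081 in parental and 0.165 in CD44 High libraries. It was 0.214 in CD44 Low and 0.247 in CD44v6 libraries.

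CD44 is a cell-surface glycoprotein that binds hyaluronan, a long sugar polymer of the extracellular matrix. Its transcript is spliced in many forms, and the variant forms can hold growth factors and act beside receptors such as MET and the EGF receptor family, while its inner tail is linked to the cytoskeleton by ezrin, radixin and moesin. In bladder epithelium CD44 marks the basal layer, and in bladder cancer it is widely used as a marker of basal or stem-like cells. Counts per gene, as deposited, cannot tell the spliced forms apart.

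The parental libraries held 18887274 to 22890589 counts and the CD44 High libraries 18697618 to 22698239, and 15951 genes had enough counts to be tested. Levels are given as CPM, read counts scaled to a common library size, and changes as log2 fold changes of CD44 High over parental with their standard error (SE). Small noncoding RNAs took 6.35% to 7.59% of the counts in parental and 4.67% to 6.33% in CD44 High libraries. Of 107 genes abundant in RT-112 and nearly silent in parental J82, the summed level was 0.943 to 1.81 CPM in parental J82 and 2.65 to 4.78 CPM in CD44 High, against 14380 to 14800 CPM in parental RT-112. The genes were chosen for low values in these parental J82 libraries, so that the difference between the J82 groups is partly set by the choice. The sum was 1.62 to 4.32 CPM in CD44 Low and 3.10 to 6.79 CPM in CD44v6. Of the leukocyte markers, 7 of 12 had no count in any of the 6 libraries, among them the T-cell genes CD3D and CD3E and the B-cell gene MS4A1. The summed level of that list was 152 to 175 CPM in parental and 141 to 217 CPM in CD44 High libraries, highest in CD44 High replicate 3, and nearly all of it was CD68, a lysosomal protein not limited to macrophages (log2 fold change 0.00). Of the endothelial markers, 5 of 9 had no count, PECAM1 and CDH5 included, and the summed level was 3.95 to 4.63 CPM in parental and 0.441 to 1.62 CPM in CD44 High, without overlap. The 4 that could be tested had log2 fold changes below 0, and 0 passed in edgeR's test (1 at an unadjusted p under 0.05, and 1 called by DESeq2, lower). The largest of them, the receptor KDR, measured 3.95, 2.87 and 3.49 CPM in parental and 1.13, 0 and 1.21 CPM in CD44 High (adjusted p = 0.0947). The part of these markers in the results below was not tested. On the first principal component of the 6 libraries, which held 38.4% of their variance, the parental libraries lay together at -29.3 to -25.6, and CD44 High replicates 1, 2 and 3 lay at 26.3, 55.9 and -0.019, so that replicate 3 was the nearest of its group to the parental libraries.

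CD44 itself was examined first, as the check of the labels. Its level was 493, 399 and 452 CPM in parental libraries 1 to 3 and 717, 772 and 714 CPM in CD44 High libraries 1 to 3. The groups did not overlap, and every CD44 High library was above every parental one. The log2 fold change was 0.71 (SE 0.16, adjusted p = 0.0355, edgeR's quasi-likelihood test with Benjamini-Hochberg adjustment), and CD44 was thus a modest change beside those described below. The call rested on all 6 libraries: leaving out any 1 of them gave changes of 0.63 to 0.79 with adjusted p-values of 0.0783 to 0.177, the largest without parental replicate 2. CD44 High lay further from the group labelled CD44 Low than from the parental cells (log2 fold change 1.39, SE 0.17). Raised CD44 was not particular to the CD44 High line. Scaled over all 24 libraries, CD44 was 715, 1072 and 612 CPM in J82 CD44v6 and 709, 764 and 708 CPM in CD44 High. CD44 High against parental in RT-112 gave 0.41 (adjusted p = 0.272), and the difference between the lines was 0.30 (SE 0.23, adjusted p = 0.766).

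**Figure D1:**
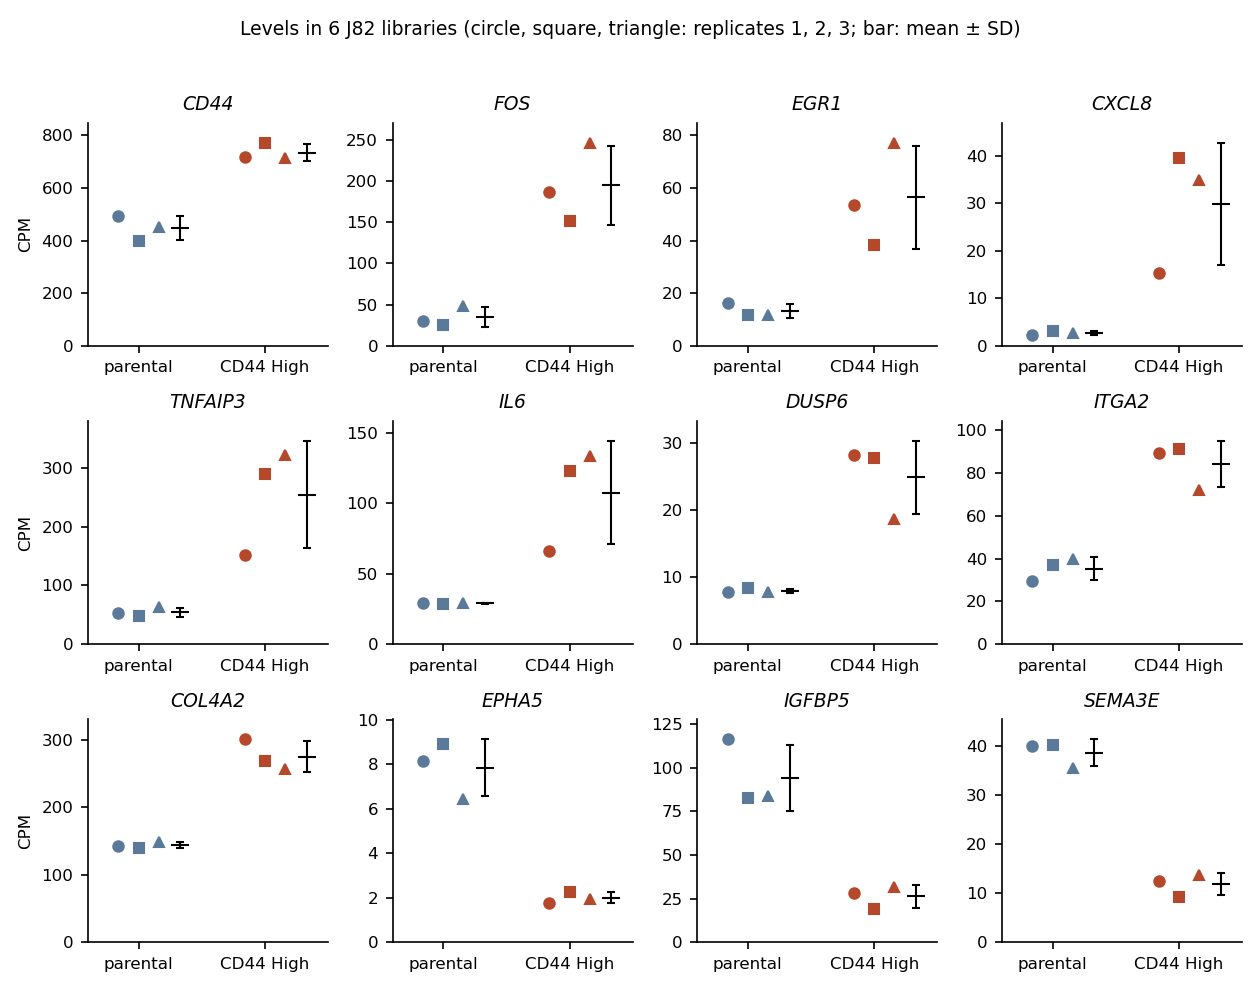
Levels of CD44 and 11 other genes in the 6 J82 libraries, in CPM on linear axes that start at 0. Symbols are single libraries, and the bar beside them is the mean ± SD over 3 libraries. In each of the 12 panels the 2 groups do not overlap: 9 genes are higher in CD44 High, and EPHA5, IGFBP5 and SEMA3E are lower.

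Across all genes, 469 of 15951 passed an adjusted p of 0.05 (2.94%), with 273 higher in CD44 High (1.71%) and 196 lower (1.23%). In all 469 the 3 CD44 High libraries lay entirely above or entirely below the 3 parental ones. Such separation was itself frequent, being present in 2383 genes higher (14.9%) and 2334 genes lower (14.6%), and 4248 separated genes did not pass the test. The changes were mostly moderate: 94 of the genes that rose and 52 of those that fell changed by at least 1 on the log2 scale. The median over all genes tested was 0.00.

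Most of the largest increases belonged to a pair of lists of rapidly induced genes. The 12 largest increases among called genes with a mean log2 CPM not under 2 included CXCL8, CXCL2, NR4A1, FOS, FOSB, TNFAIP3, RIPK4, EGR1, CSRNP1, NR4A2 and IL6. Immediate-early genes, such as FOS, EGR1 and NR4A1, encode transcription factors whose transcription starts within minutes of a growth factor or stress signal and needs no new protein. TNFAIP3, CXCL8, CXCL2 and IL6 are textbook targets of NF-kB, the transcription factor of inflammatory signalling. RIPK4, a protein kinase of epithelial differentiation with a log2 fold change of 2.14, belongs to neither list. Of these 12 genes, 7 kept their call whichever library was left out, and CXCL2, NR4A1, RIPK4, CSRNP1 and IL6 did not.

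Among immediate-early and stress response genes, 15 of 31 tested rose (48.4%, beside 1.71% of all genes) and none fell. The median log2 fold change was 1.11. FOS, which pairs with JUN proteins to form the factor AP-1, measured 30.6, 25.1 and 48.2 CPM in the parental libraries and 187, 151 and 246 CPM in CD44 High. Its log2 fold change was 2.49 (SE 0.28, adjusted p = 0.000826), and no CD44 High library came near the parental range. FOSB, its close relative, went from 14.6, 7.01 and 20.8 CPM to 65.5, 54.2 and 100.2 CPM (2.37, SE 0.34, adjusted p = 0.00325). Of the JUN partners, JUNB rose by 1.55 (35.2, 37.4 and 39.0 CPM against 87.7, 122 and 117 CPM, adjusted p = 0.00162). JUN rose by 0.71 (274 to 284 CPM against 335 to 526 CPM, adjusted p = 0.0350), and JUND had a log2 fold change of 0.24 and did not pass. FOSL1 and FOSL2, the other FOS relatives, had log2 fold changes of 0.30 and 0.25 with overlapping groups, so that the AP-1 genes did not move alike.

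EGR1, a zinc finger factor induced through serum response factor, measured 16.3, 11.8 and 11.8 CPM in the parental libraries and 53.7, 38.4 and 77.1 CPM in CD44 High (2.08, SE 0.30, adjusted p = 0.00303). Its promoter is shown because the site that links it to that signal lies in it: CArG boxes, the elements bound by serum response factor, are in capitals, in the stretch from 130 to 49 bases before the start (RefSeq, GRCh38.p14, chr5:138465349-138465430, plus strand).
EGR1: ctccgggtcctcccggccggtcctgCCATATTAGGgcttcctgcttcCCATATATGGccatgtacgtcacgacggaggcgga
A CArG box within 250 bases before the start, on either strand, was present in 1.14% of 27303 RefSeq promoters and in 0.985% of those of the genes tested. Of the 12 immediate-early genes that rose and have a promoter in that table, EGR1 alone held one in this window. Other short DNA elements were searched in the same window. The CRE motif TGACGTCA and the E-box CACGTG were each in 2 of the 12 (16.7%), beside 2.89% and 8.93% of the genes tested. The kappaB motif, described below, was in 2 (beside 19.6%), and the AP-1 motif TGANTCA in 0 (beside 3.91%).

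The nuclear receptors of the NR4A family rose as well. NR4A1 measured 2.78, 1.71 and 2.75 CPM in parental and 6.0, 10.4 and 24.8 CPM in CD44 High libraries (2.49, SE 0.60, adjusted p = 0.0412), with replicate 3 far above the others. NR4A2 rose by 1.95 (adjusted p = 0.00427), and NR4A3 had a log2 fold change of 2.01 with overlapping groups (adjusted p = 0.149). The remaining members that rose were CSRNP1 (2.03), IER3 (1.65), MAFF (1.31), KLF10 (1.11), IER2 (1.02), KLF4 (0.96), IER5 (0.94) and PPP1R15A (0.53), a phosphatase subunit of the stress response. ATF3, a stress-induced factor, went from 23.8, 25.2 and 25 CPM to 35.3, 108 and 95.8 CPM; its log2 fold change of 1.69 did not pass (adjusted p = 0.0650). Of the 15 calls, 8 were kept whichever library was left out (FOS, FOSB, JUNB, EGR1, NR4A2, KLF4, KLF10 and IER2), and the list had 8 calls without parental replicate 1, 10 without parental replicate 2 or CD44 High replicate 2, and 11 to 17 without any other library.

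The NF-kB list rose to a similar extent, with 16 of 33 genes tested higher (48.5%, beside 1.71% of all genes) and none lower. Its median log2 fold change was 0.81. CXCL8, the neutrophil-attracting chemokine interleukin 8, had the largest increase of any gene named here: 2.33, 3.09 and 2.70 CPM in the parental libraries and 15.3, 39.5 and 34.9 CPM in CD44 High (3.47, SE 0.52, adjusted p = 0.00379). CXCL2, a chemokine of the same class, measured 1.52, 1.93 and 2.06 CPM against 6.44, 7.82 and 17 CPM (2.50, SE 0.55, adjusted p = 0.0263). In CXCL8 replicate 1 was the lowest CD44 High library, and in CXCL2 replicate 3 stood above the other 2. The related CXCL1 and CXCL3 rose by 1.72 and 2.15. These 3 CXC genes have similar sequences, and how the authors counted reads that match several genes is not given in the sources used here, so their separate values are less certain than their joint rise.

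The cytokines IL6, IL1A and IL1B all rose. IL6, an interleukin that acts on the cells that release it and on their neighbours, was nearly constant in parental cells at 28.9, 28.8 and 29.5 CPM and measured 65.8, 123 and 134 CPM in CD44 High (1.89, SE 0.36, adjusted p = 0.0149). IL1B was low throughout (0.717 to 1.06 CPM in parental, 2.78 to 6.53 CPM in CD44 High, 2.47, adjusted p = 0.00968), and IL1A went from 4.36 to 4.66 CPM up to 11.0 to 20.4 CPM (1.70, adjusted p = 0.00342). PTGS2, the inducible cyclooxygenase, rose by 1.77. The list's uncalled members include genes that are just as well known as targets: ICAM1 had a log2 fold change of 0.17, SOD2 of 0.16 and CCL2 of 0.00. CXCL6, CCL20 and TNF had too few counts to be tested.

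Several feedback inhibitors of NF-kB rose as well, while NFKBIB (0.00) and TNIP1 (0.33) did not pass. TNFAIP3, also called A20, an enzyme that edits ubiquitin chains and shuts the pathway off, measured 52.6, 47.9 and 62.4 CPM in parental and 151, 290.5 and 322 CPM in CD44 High (2.23, SE 0.35, adjusted p = 0.00446). NFKBIA, which encodes the inhibitor that holds NF-kB in the cytoplasm, measured 62.6, 79.2 and 85.2 CPM against 121, 227 and 225 CPM (1.34, SE 0.32, adjusted p = 0.0427). Replicate 1 was the lowest CD44 High library in both. NFKBIE rose by 1.11, NFKBIZ by 1.30, BIRC3 by 1.12, TRAF1 by 0.81 and BIRC2 by 0.60, and IRF1, an interferon-related factor, by 0.99. The subunits of NF-kB itself did not pass: NFKB1 had a log2 fold change of 0.54 (adjusted p = 0.139) and RELA of 0.02.

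The kappaB motif, the short DNA element bound by NF-kB, was searched within 250 bases before the start as GGNNNTTCC on either strand. It was present in 9 of the 15 NF-kB list genes that rose and have a RefSeq promoter (60%), in 17.1% of 27303 promoters and in 19.6% of those of the genes tested. Over all genes that rose, 20.4% of 206 promoters held it, which is near the share of the genes tested, and 14.5% of 152 promoters of genes that fell. The matches are shown in capitals, with the neighbouring bases, for the pair of chemokines and the pair of inhibitors described above, in RefSeq GRCh38.p14: CXCL8 at chr4:73740453-73740511 (plus strand), CXCL2 at chr4:74099215-74099297 (minus strand), NFKBIA at chr14:35404797-35404999 (minus strand) and TNFAIP3 at chr6:137867167-137867237 (plus strand). All are written 5′ to 3′ on the strand of the gene.
CXCL8: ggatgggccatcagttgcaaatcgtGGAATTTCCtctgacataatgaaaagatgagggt
CXCL2: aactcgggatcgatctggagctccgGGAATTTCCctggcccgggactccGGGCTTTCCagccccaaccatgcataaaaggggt
NFKBIA: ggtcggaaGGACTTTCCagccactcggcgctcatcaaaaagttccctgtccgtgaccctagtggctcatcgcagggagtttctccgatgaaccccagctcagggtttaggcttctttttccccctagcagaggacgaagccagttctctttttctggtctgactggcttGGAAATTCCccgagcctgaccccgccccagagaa
TNFAIP3: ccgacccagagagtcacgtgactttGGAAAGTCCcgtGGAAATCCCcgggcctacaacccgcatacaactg
CXCL8 holds 1 match and the other 3 genes hold 2 each, those of TNFAIP3 read on the opposite strand. The members that rose and held a match were BIRC3, CXCL1, CXCL2, CXCL3, CXCL8, IL6, NFKBIA, NFKBIZ and TNFAIP3. Because the list was made of known NF-kB targets, its share of matches could be high by choice. List members that did not rise were not compared. A match is a description of the sequence only, and binding was not measured.

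The 2 lists did not order the CD44 High libraries in the same way. Of the 16 NF-kB genes that rose, 14 had their lowest CD44 High value in replicate 1 and 2 in replicate 3. Of the 15 immediate-early genes, 9 were lowest in replicate 1 and 6 in replicate 2. The difference between these orders was not tested. Leaving out a library reduced the NF-kB calls to 5 without parental replicate 1, to 7 without parental replicate 2, to 10 without parental replicate 3 and to 8 without CD44 High replicate 2; 16 were called without CD44 High replicate 1 and 11 without replicate 3. TNFAIP3, BIRC3, CXCL8, IL1A and IRF1 kept their call in all 6 of these fits.

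**Figure D2:**
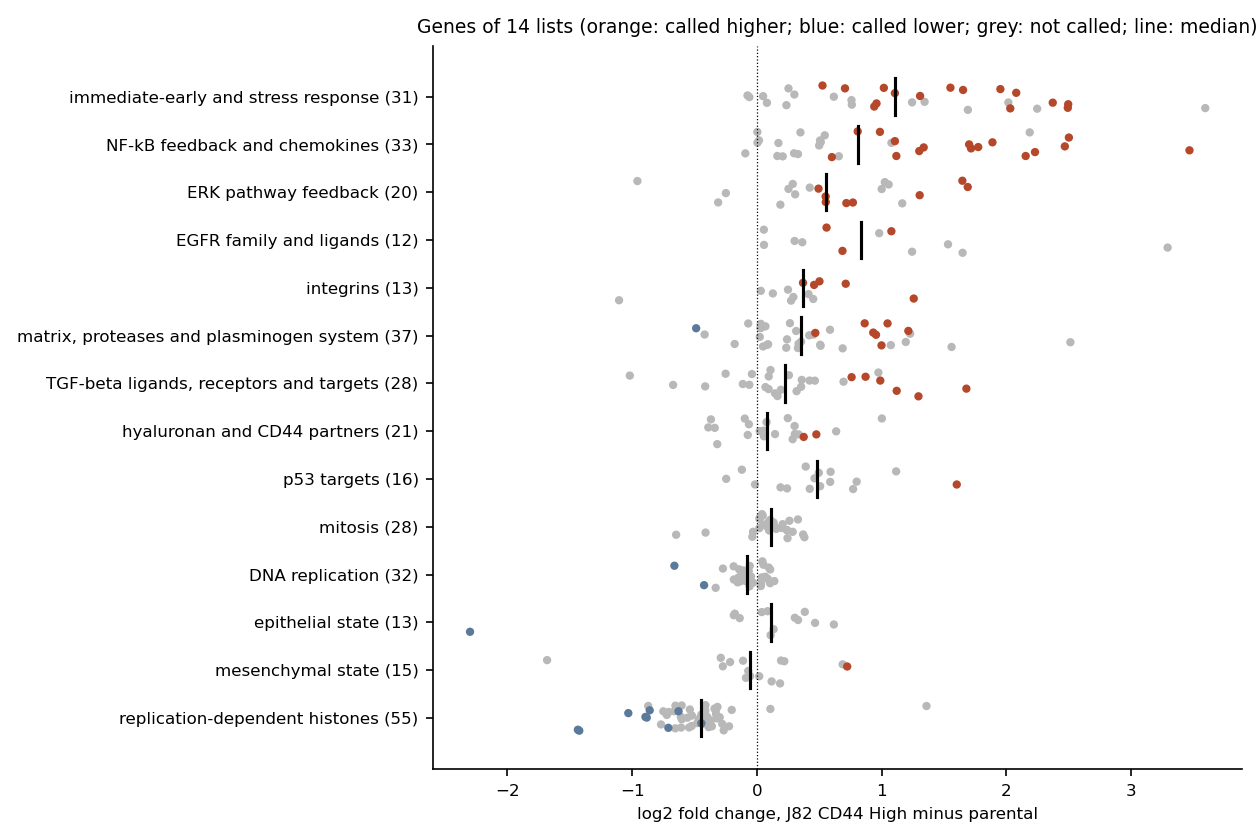
Log2 fold changes (CD44 High minus parental) of the tested members of 14 gene lists, 1 point a gene, with the number tested in brackets and the list median as a vertical line. Coloured points passed an adjusted p of 0.05; the immediate-early list (median 1.11) and the NF-kB list (median 0.81) lie mostly to the right of 0, and the histones (median -0.45) to the left.

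The ERK kinase cascade carries signals from growth factor receptors to the nucleus. Of its targets and inhibitors, 8 of 20 genes rose (40%, beside 1.71% of all genes) and none fell, with a median of 0.55. DUSP6, the phosphatase that switches ERK itself off, measured 7.71, 8.33 and 7.82 CPM in parental and 28.3, 27.8 and 18.6 CPM in CD44 High (1.65, SE 0.19, adjusted p = 0.000826). DUSP1, a phosphatase of the wider MAP kinase family, rose by 1.30 (54.1, 48.8 and 56.8 CPM against 126, 119 and 149 CPM), and SPRY4, a brake upstream in the pathway, by 1.69. CCND1, which encodes cyclin D1 and drives entry into the cell cycle, went from 710.4, 689 and 703 CPM to 1041, 1073 and 968 CPM (0.55, SE 0.08, adjusted p = 0.00344). EPHA2, an ephrin receptor, rose by 0.77, the phosphatase DUSP10 by 0.55, and the factors ETV4 and ETV5 by 0.72 and 0.49. In these genes the 3 CD44 High libraries lay close together in CCND1 and less so in SPRY4 (6.78, 12.4 and 15.5 CPM). SPRY1 had a log2 fold change of -0.96 (adjusted p = 0.45). The 4 calls kept whichever library was left out were DUSP1, DUSP6, CCND1 and EPHA2; 4 genes were called without any 1 of the parental libraries or without CD44 High replicate 2, and 5 without CD44 High replicate 3.

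Of the EGF receptor family, its ligands and its regulators, 3 of 12 genes tested rose (25%, beside 1.71% of all genes) and none fell. The list median was 0.83. The receptors themselves changed little: EGFR had a log2 fold change of 0.30 (adjusted p = 0.591), ERBB2 of 0.06 and ERBB3 of 0.06. NRG1, a ligand of ERBB3, rose by 0.56 (116, 115 and 117 CPM against 173, 175 and 164 CPM, adjusted p = 0.0222). ERRFI1 and LRIG1, both inhibitors of the receptors, rose by 1.08 and 0.69. NRG1 and LRIG1 each lost their call in the fit of all 24 libraries and in 5 of the 6 fits that left out 1 library. The ligands HBEGF (1.24, adjusted p = 0.0933), EREG (1.65, adjusted p = 0.217) and AREG (3.29, adjusted p = 0.452) did not pass; AREG had counts in 1 parental and 1 CD44 High library only. Without parental replicate 1 or without CD44 High replicate 2, 0 of the 12 genes were called, and without parental replicates 2 or 3 it was 1 gene.

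Among genes linked to CD44 through hyaluronan, splicing or the membrane, 2 of 21 tested rose (9.52%, beside 1.71% of all genes) and none fell. The median was 0.08, close to that of all genes. MET, the receptor of hepatocyte growth factor, measured 295, 297 and 314 CPM in parental and 421, 426 and 413 CPM in CD44 High (0.48, SE 0.07, adjusted p = 0.00342). TRA2B, a splicing factor reported to act on CD44 exons, rose by 0.37 (adjusted p = 0.0397); its call was lost in 5 of the 6 fits that left out 1 library, with CD44 High replicate 3 the exception. The linkers EZR and RDX lay at -0.37 (adjusted p = 0.151) and -0.32 (adjusted p = 0.102), and MSN at 0.02. The hyaluronan synthases HAS1, HAS2 and HAS3 and the ligand SPP1 had too few counts to be tested.

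Integrins, the receptors that tie cells to the matrix, rose in 5 of 13 genes (38.5%, beside 1.71% of all genes), with none lower. Their median was 0.37. ITGA2, the collagen-binding alpha-2 chain, stood out: 29.4, 37.0 and 39.6 CPM in parental against 89.4, 91.4 and 72.1 CPM in CD44 High (1.26, SE 0.15, adjusted p = 0.00108). The laminin-binding chains ITGA3 and ITGA6 rose by 0.50 and 0.46, the fibronectin-binding ITGA5 by 0.71, and ITGB1, the beta chain that all of these can pair with, by 0.37 (660.5, 772 and 693 CPM against 887, 985 and 875 CPM, adjusted p = 0.0285). ITGB4, the hemidesmosome chain, had a log2 fold change of 0.03, and ITGAV of 0.25 with overlapping groups. ITGA2 kept its call in all 6 fits that left out 1 library; the list had 1 call without parental replicate 1, 2 without parental replicate 3 or CD44 High replicate 2, and 3 without parental replicate 2 or CD44 High replicate 1.

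Genes of the extracellular matrix and its proteases rose in 7 of 37 cases (18.9%, beside 1.71% of all genes) and fell in 1. Their median was 0.35. The basement membrane collagens COL4A1 and COL4A2, whose chains assemble into a joint molecule of the sheet-like basement membrane network and whose genes lie head to head on chromosome 13, rose together. COL4A2 measured 143, 139.8 and 149 CPM in parental and 300.4, 268 and 257 CPM in CD44 High (0.93, SE 0.11, adjusted p = 0.000892), and COL4A1 rose by 0.95 (adjusted p = 0.00254). COL6A1, a chain of the microfibrillar collagen VI, rose by 1.21 (13.9, 17.5 and 15.9 CPM against 39.0, 35.7 and 34.8 CPM). Both plasminogen activators rose, PLAU by 1.05 (36.4, 35.3 and 33.3 CPM against 69.0, 84.2 and 63.6 CPM, adjusted p = 0.000641) and PLAT by 0.86, while the receptor PLAUR had a log2 fold change of 0.04. TIMP3, an inhibitor of matrix metalloproteases, rose by 0.47. COL3A1, a fibrillar collagen typical of fibroblasts, fell by 0.49 (605, 600.0 and 540 CPM against 423, 436 and 386 CPM, adjusted p = 0.0372), and FN1 had a log2 fold change of -0.07. COL4A1, COL4A2, COL6A1 and PLAU were among the 5 that kept their call whichever library was left out, and COL3A1 lost its call in each of the 6 fits.

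Of the TGF-beta family and its targets, 6 of 28 genes rose (21.4%, beside 1.71% of all genes) and none fell. Their median was 0.22. The inhibitors of DNA binding ID1 and ID2, which answer mostly to BMP signals, rose by 1.29 and 1.68; ID1 measured 29.0, 33.7 and 40.8 CPM in parental and 74.5, 99 and 80.1 CPM in CD44 High (adjusted p = 0.00651). SMAD7, the pathway's own inhibitor, rose by 1.12, the decoy receptor BAMBI by 0.87, the receptor TGFBR2 by 0.76 and the matrix protein TGFBI by 0.99. Other well known targets did not pass, among them PMEPA1 (0.36) and SKIL (0.16). TGFBI alone kept its call in all 6 fits that left out a library, and the list had 1 call without parental replicate 1 and 2 without parental replicate 2 or CD44 High replicate 2.

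The insulin-like growth factor binding proteins, which carry IGF outside the cell, moved in opposite directions. IGFBP5 fell from 116, 82.7 and 84.0 CPM to 28.5, 18.9 and 31.7 CPM (-1.84, SE 0.21, adjusted p = 0.000826), and IGFBP3 from 1524, 1587 and 1317 CPM to 1017, 1112 and 963 CPM (-0.52, SE 0.10, adjusted p = 0.0175). IGFBP7 rose from 15.8, 16.1 and 16.4 CPM to 42.6, 39.9 and 33.0 CPM (1.26, SE 0.13, adjusted p = 0.000641). IGFBP2 and IGFBP6 rose by 1.0 and 0.70. Of 11 genes tested in this list, 3 thus rose (27.3%) and 2 fell (18.2%), beside 1.71% and 1.23% of all genes. IGFBP5 and IGFBP7 kept their call whichever library was left out. Targets of YAP, the effector of the Hippo pathway, gave 1 higher (NT5E, 0.69) and 2 lower (CCDC80, -0.43, and IGFBP3) of 26. These shares were 3.85% and 7.69%. The classical targets CCN1 and CCN2 lay at 0.09 and -0.03.

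The 12 largest decreases, chosen in the same way, were EPHA5, IGFBP5, UGT1A7, SEMA3E, GASK1B, SIM1, TLL1, ADGRL3, H3-2, RGS7BP, NPPB and CLSTN2. EPHA5, an ephrin receptor of the nervous system, measured 8.16, 8.94 and 6.45 CPM in parental and 1.78, 2.28 and 1.95 CPM in CD44 High (-1.97, SE 0.20, adjusted p = 0.000641). SEMA3E, a secreted guidance cue, went from 40.1, 40.3 and 35.6 CPM to 12.6, 9.36 and 13.8 CPM (-1.70, SE 0.16, adjusted p = 0.00055). RGS7BP, which anchors a regulator of G protein signalling, was almost the same in the libraries of each group, at 17.5, 17.3 and 17.1 CPM against 6.87, 6.88 and 6.64 CPM (-1.35, SE 0.11, adjusted p = 0.000318). The groups were well apart in each of these 3 genes.

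NPPB, the natriuretic peptide better known from the heart, fell from 86.6, 106 and 79.9 CPM to 31.7, 38.2 and 38.0 CPM (-1.34, SE 0.16, adjusted p = 0.00118). SIM1, a transcription factor, fell by 1.55, the secreted GASK1B by 1.57, the protease TLL1 by 1.54, the adhesion receptor ADGRL3 by 1.37 and the cadherin-like CLSTN2 by 1.32. UGT1A7 had a log2 fold change of -1.72 (adjusted p = 0.0243), but the genes of its cluster share most of their exons, so that its counts are uncertain, and H3-2 (-1.35) is nearly identical to other histone genes. Of the 12, 7 kept their call whichever library was left out (EPHA5, IGFBP5, SEMA3E, GASK1B, SIM1, RGS7BP and NPPB). In the fit of all 24 libraries, SIM1 (adjusted p = 0.119), TLL1 (adjusted p = 0.177) and UGT1A7 (adjusted p = 0.247) lost their call. EPHA5, IGFBP5, TLL1, ADGRL3, RGS7BP, NPPB and CLSTN2 had too few counts in RT-112 to be tested there.

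Epithelial and mesenchymal markers did not move as groups. CDH1, which encodes E-cadherin, was the 1 epithelial gene of 13 that was called (7.69%, beside the 1.23% of all genes that fell). It was low, at 2.33, 2.54 and 2.80 CPM in parental and 0.522, 0.545 and 0.474 CPM in CD44 High (-2.30, SE 0.26, adjusted p = 0.000826). EPCAM, another epithelial surface marker, was as low in both groups (1.32 to 2.20 CPM against 1.84 to 2.04 CPM), and GRHL2, OVOL1, OVOL2, RAB25 and ESRP1 had too few counts to be tested. The simple keratins KRT8 and KRT18 were abundant and level, with log2 fold changes of 0.04 and 0.09. Of 15 mesenchymal genes, 1 rose (6.67%, beside 1.71% of all genes) and none fell. This gene, VIM, the intermediate filament vimentin, went from 381, 357 and 374 CPM to 628, 616 and 592 CPM (0.72, SE 0.08, adjusted p = 0.000674). CDH2 (0.19), ZEB1 (-0.21), SNAI2 (-0.27) and TWIST1 (-0.09) did not pass. The medians were 0.11 for the epithelial and -0.05 for the mesenchymal list. VIM lost its call in the fit of all 24 libraries (adjusted p = 0.124).

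About as many markers of the urothelial layers fell below the count filter as passed it. Of the basal markers, 8 of 18 could be tested and 0 passed in edgeR's test (2 at an unadjusted p under 0.05, and 1 called by DESeq2), with KRT5, KRT14 and TP63 under the limit. Of the luminal markers, 9 of 18 could be tested, GATA3 and the uroplakins not among them. Of these 9, PPARG alone was called (11.1%, beside the 1.71% of all genes that rose). It rose by 0.45 (adjusted p = 0.0457), a call lost in all 6 fits that left out 1 library. Among stem-like markers, KLF4 was the 1 call of 10 (10%, beside the 1.71% of all genes that rose). SOX9 (0.60), ALDH1A3 (0.14) and BMI1 (-0.11) did not pass. ALDH1A1, PROM1, SOX2 and CD24 had too few counts to be tested.

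Histone genes were lower as a group. Of 55 replication-dependent histone genes tested, 53 had a log2 fold change below 0. Of the 55, 9 fell (16.4%, beside 1.23% of all genes) and none rose, and the median was -0.45. H3C3 went from 50.9, 43.3 and 39.1 CPM to 19.2, 12.3 and 17.8 CPM (-1.43, SE 0.23, adjusted p = 0.00459), H2AC16 from 45.0, 50.4 and 44.9 CPM to 20.8, 13.3 and 18.1 CPM (-1.42, adjusted p = 0.0109), and H4C2 from 47.9, 50.4 and 52.8 CPM to 32.5, 18.6 and 22.8 CPM (-1.03, adjusted p = 0.00697). Against the parental mean, the list's median was -0.18, -0.62 and -0.75 in CD44 High replicates 1, 2 and 3. Histone genes took 0.801% to 0.833% of the counts in parental and 0.525% to 0.721% in CD44 High libraries. These transcripts have no poly(A) tail in dividing cells and are copies of each other, so that both the library method, which is not given in the sources used here, and the counting of repeated sequence bear on them. Leaving out CD44 High replicate 1 raised the calls from 9 to 23, and leaving out any other library lowered them to 3 or 4; H2BC7, H3C3 and H4C2 kept theirs throughout.

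Of the small noncoding RNAs, 5 of 257 fell (1.95%), a share near the 1.23% of all genes, and none rose. Their median was -0.19, with -0.01, -0.13 and -0.39 in CD44 High replicates 1 to 3. The 5 were SNORA70 (-1.82), SNORA49 (-1.62), SCARNA28 (-1.31), SNORD10 (-1.02) and SNORD116-15 (-2.90, from 0.846 to 1.26 CPM in parental and 0.0495 to 0.263 CPM in CD44 High). In CD44 Low their median was 0.15, where that of the histones was -0.90. Their part in the histone result was not tested. Genes of the cell cycle did not show a shift of that size. Of 28 mitosis genes, 0 passed in edgeR's test (6 at an unadjusted p under 0.05, and 1 called by DESeq2, lower), with a median of 0.11. Of the 28, 24 lay above 0 and 4 below. The groups did not overlap in 14 that were higher and 2 that were lower, beside 14.9% and 14.6% of all genes. Of 32 DNA replication genes, 2 fell (6.25%, beside 1.23% of all genes) and none rose, with a list median of -0.08. MCM3, a subunit of the replicative helicase, fell by 0.42 (312, 335 and 305 CPM against 229, 244 and 237 CPM, adjusted p = 0.0134) and CCNE2, a cyclin of the start of S phase, by 0.66 (adjusted p = 0.0218). Both lost their call in at least 3 of the 6 fits that left out 1 library.

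Among cell cycle inhibitors, CDKN1A and CDKN2B went in opposite directions. CDKN1A, which encodes p21, measured 6.91, 8.50 and 9.52 CPM in parental and 22.1, 31.6 and 21.8 CPM in CD44 High (1.60, SE 0.22, adjusted p = 0.00269). CDKN2B, which encodes p15, fell from 74.7, 72.1 and 68.0 CPM to 31.7, 37.4 and 39.9 CPM (-0.98, SE 0.10, adjusted p = 0.000641). Both kept their call whichever library was left out. CDKN1A was the 1 call of 16 p53 targets (6.25%, beside the 1.71% of all genes that rose). The list's median was nevertheless 0.48, and in it 10 genes were higher without overlap, beside 14.9% of all genes. MDM2 (0.39) and FAS (0.59) were among these and did not pass, and BBC3 (1.1) overlapped between the groups.

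The remaining lists held few calls, to be read beside the 1.71% of all genes that rose and the 1.23% that fell. Of 27 genes of drug and platinum handling, the efflux pump ABCB1 fell by 0.76 (29.8, 26.8 and 29.4 CPM against 18.7, 16.7 and 15.2 CPM, adjusted p = 0.00216) and GSTM3, a glutathione transferase, by 0.49 (adjusted p = 0.0452); ABCB1 lost its call in the fit of all 24 libraries (adjusted p = 0.306), and GSTM3 in 5 of the 6 fits that left out a library. AKR1C1, an aldo-keto reductase, was the 1 NRF2 target of 19 that rose (0.71, adjusted p = 0.00416), but near-identical relatives share its reads. Of the cytoskeletal list, CALD1, which encodes the actin-binding caldesmon, fell from 847, 964 and 763 CPM to 322, 351 and 437 CPM (-1.21, SE 0.16, adjusted p = 0.00211), while FHL1, FHL2 and RFLNA rose by 1.33, 0.51 and 1.33. WNT5A, a ligand of the non-canonical pathway, fell by 1.12 and the receptor FZD7 rose by 0.86. The BCL2 family members MCL1 and PMAIP1, the first protecting from and the second promoting cell death, rose by 0.45 and 0.72. Of these genes, ABCB1, AKR1C1 and CALD1 kept their call whichever library was left out. In the unfolded protein response 3 of 22 genes rose (DNAJB9, CEBPB and PPP1R15A). In glycolysis and hypoxia SLC2A1 (0.49) and ADM (0.41) rose and NDRG1 fell by 0.68 (26 genes). In the interferon list IRF1 rose and BST2 fell by 0.36 (35 genes, 2.86% in each direction, near the shares of all genes). Of the calls in the unfolded protein, glycolysis and interferon lists, NDRG1 and IRF1 alone were kept whichever library was left out. SLC2A1 and BST2 lost theirs in all 6 of these fits. Heat shock genes gave 0 calls of 12 in edgeR's test (2 at an unadjusted p under 0.05, 0 by DESeq2), and cholesterol and fatty acid synthesis 0 of 25 (2 at an unadjusted p under 0.05, 1 by DESeq2). Of the 12 heat shock genes, 6 were lower and 0 higher without overlap between the groups, beside 14.6% and 14.9% of all genes. Of the fibroblast and muscle markers, DCN, PDGFRA, FAP and DES had no count in any of the 6 libraries, and the list's summed level of 595 to 670 CPM in parental and 432 to 483 CPM in CD44 High was mostly COL3A1.

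A whole chromosome lay lower in CD44 High. Of the genes tested, 96.2% were matched to chromosomes through the RefSeq table for GRCh38.p14, and the 989 on chromosome 19 had a median log2 fold change of -0.19, against 0.01 over all other chromosomes. On chromosome 19, 752 genes (76.0%) were below 0, 42 fell (4.25%, beside 1.05% on the other chromosomes) and 6 rose. The other chromosomes had medians from -0.04 (chromosome 6) to 0.08 (chromosome 20). Against the parental mean, the chromosome 19 median was -0.19, -0.21 and -0.16 in CD44 High replicates 1 to 3 and 0.02, -0.02 and -0.01 in the parental libraries. The groups did not overlap, and the exact two-sided permutation test of the 3 against 3 libraries gave p = 0.1, the smallest it can reach. Chromosome 19 was singled out for its median in these same libraries, so that the p-value is no separate evidence and the shift is a description.

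The shift ran along the entire chromosome. In windows of 50 neighbouring genes whose mean log2 CPM was not under 2, 13 of the 14 on chromosome 19 had a median below -0.1, as did 3 of the 198 on other chromosomes. Those 3 lay on chromosome 6, where the lowest (-0.35) starts in the histone cluster and another holds genes from SMPDL3A to SF3B5, and at the start of chromosome 9, up to CDKN2A. Zinc finger genes, which crowd chromosome 19, had a median of -0.21 there (249 genes), the other 740 genes of -0.18, and zinc finger genes elsewhere of -0.07. Among the genes that fell were CHAF1A (-0.77), which assembles histones on new DNA, the maintenance methyltransferase DNMT1 (-0.45) and its partner UHRF1 (-0.46), the zinc finger genes ZFP14 (-1.04) and ZNF91 (-0.84), and the kinase MAP2K2 (-0.38); these were chosen after their values were seen. Of the 6 that rose, 4 were immediate-early genes: FOSB, JUNB, IER2 and PPP1R15A. The median stayed between -0.20 and -0.17 whichever library was left out, while the 42 genes called lower became 3 without parental replicate 1, 2 without parental replicate 2 or CD44 High replicate 2, 17 without parental replicate 3 and 16 without CD44 High replicate 1. DNA copy number was not measured here, and its part in the shift was not tested.

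**Figure D3:**
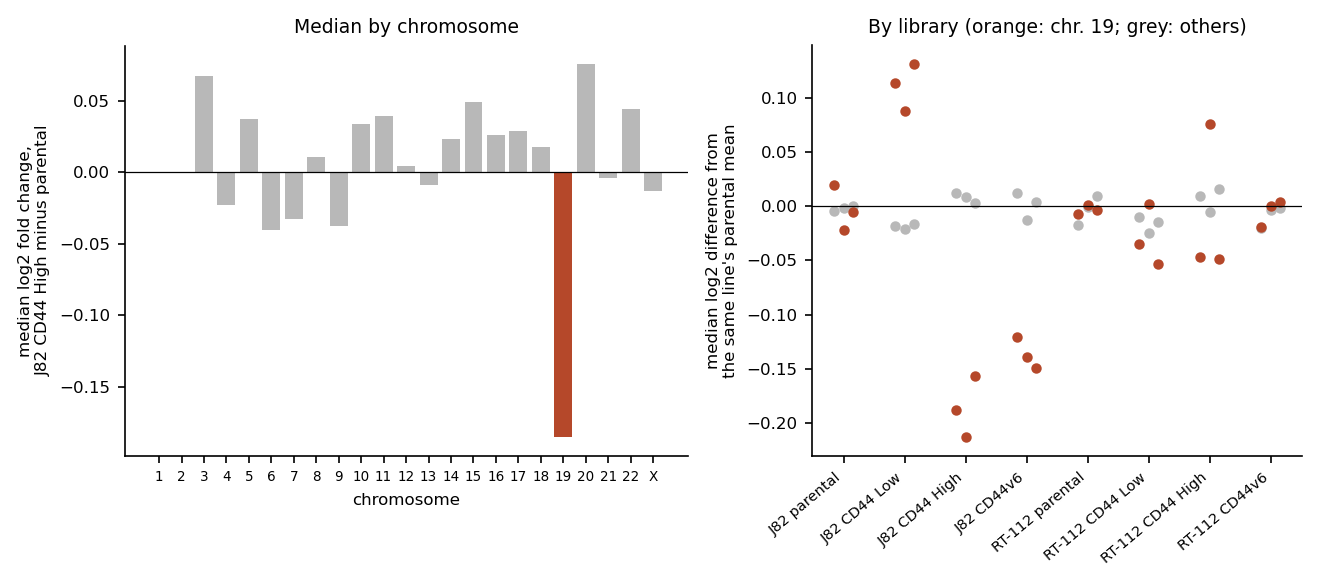
Left, median log2 fold change (CD44 High minus parental) of the genes on each chromosome in J82; chromosome 19 lies at -0.19 and all others between -0.04 and 0.08. Right, median of chromosome 19 genes (orange) and of all other genes (grey) in each of the 24 libraries, as the log2 difference from the parental mean of the same line; J82 CD44 High and CD44v6 lie below 0, J82 CD44 Low above, and the RT-112 groups near 0.

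The other J82 lines are set beside these values, with the caution that all 3 are compared with the same parental libraries. The chromosome 19 median was -0.12 to -0.15 in the 3 CD44v6 libraries and 0.09 to 0.13 in the 3 CD44 Low libraries, and in RT-112 CD44 High it was -0.05 to 0.08. On chromosome 3, the 5 windows from CCDC14 to the end had medians of 0.12 to 0.18 in CD44 High and were the only neighbouring windows above 0.12 on any chromosome. By library, their genes lay at 0.19, 0.15 and 0.09 in CD44 High, 0.07 to 0.14 in CD44v6 and -0.08 to -0.05 in CD44 Low, and the first 8 windows of the chromosome lay at 0.01, 0.01 and -0.01 in CD44 High. These windows were chosen for their values, so that this is a description.

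The gene lists differed in how CD44 Low behaved. The immediate-early median was 0.97 in CD44 Low and 1.02 in CD44v6, beside 1.11 in CD44 High, so that all 3 derived lines lay above the shared parental libraries. FOS, for example, had log2 fold changes of 2.36 in CD44 Low and 2.25 in CD44v6, and a difference between CD44 High and CD44 Low of 0.13 (adjusted p = 0.781). The NF-kB median was 0.24 in CD44 Low and 1.0 in CD44v6. That of the integrins was -0.42 in CD44 Low and 0.39 in CD44v6, and ITGA2 lay at -1.78 in CD44 Low and 1.42 in CD44v6. CD44 High and CD44 Low were far apart in ITGA2 (3.03, adjusted p = 2.23e-07), CCND1 (1.60), COL4A2 (1.49), IGFBP7 (2.40), SEMA3E (-2.25) and EPHA5 (-2.54, adjusted p = 2.62e-06). Histones were lower than in parental cells in CD44 Low (-0.90) and CD44v6 (-0.44) too. Over all genes tested, 15.7% were called between CD44 High and CD44 Low. Between CD44 High and CD44v6, edgeR's test called 0 genes (1536 had an unadjusted p under 0.05; no other tool was run), which does not show that they were alike.

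The change from parental to CD44 High was tested for a difference between J82 and RT-112 over all 24 libraries. Of 17438 genes, 42 differed (0.241%), 31 with the higher change in J82 (0.178%) and 11 with the lower (0.0631%). Some of the 42 had a group mean of 0 CPM, so that the size of their difference is uncertain. A difference need not rest on J82. Another of the 42 measured 95.6 CPM in both J82 groups, and in RT-112 20.6 CPM in parental and 31.1 CPM in CD44 High. CDH1 differed most by p-value: it is abundant in RT-112, at 319 ± 17.3 CPM in parental and 309 ± 23.9 CPM in CD44 High cells (SD, n = 3), and hardly expressed in J82, where it fell (difference -2.25, SE 0.20, adjusted p = 4.42e-06). FOS (difference 2.04, adjusted p = 0.00458) and JUNB (1.71, adjusted p = 0.00458) changed more in J82. In RT-112, FOS measured 259 ± 40.8 CPM in parental and 352 ± 1.36 CPM in CD44 High (log2 fold change 0.44, adjusted p = 0.136), so that the J82 cells started from a lower level. CDKN1A (1.65, adjusted p = 0.0246) and ID1 (1.37, adjusted p = 0.0256) had the same pattern, with RT-112 changes of -0.05 and -0.08. For TNFAIP3 the difference was 0.10, and for CXCL8 2.38 with an adjusted p of 0.198.

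**Figure D4:**
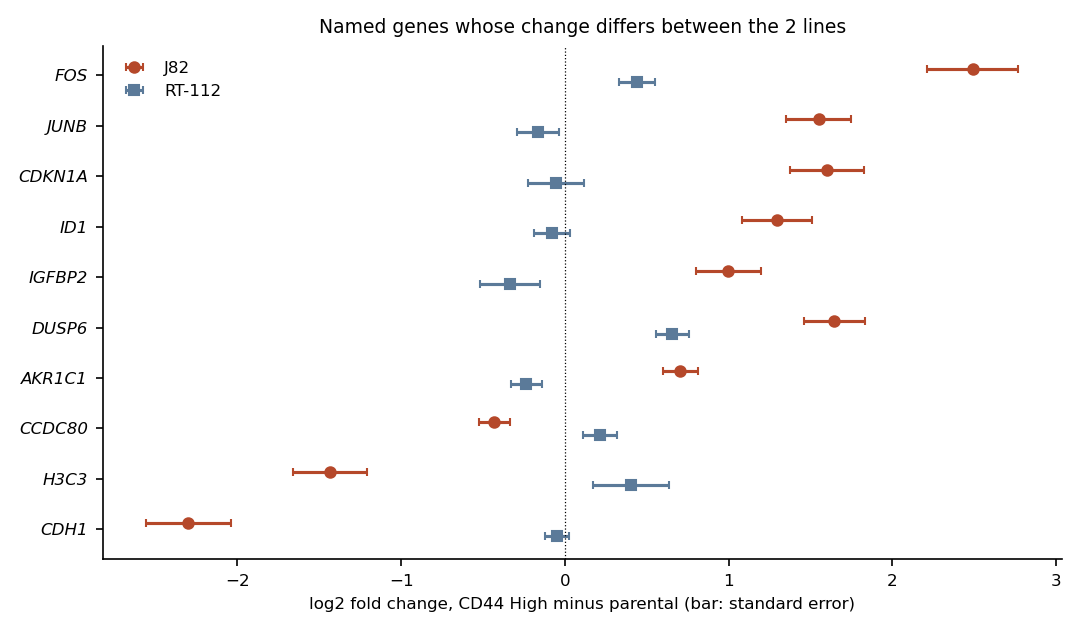
Log2 fold changes of CD44 High over parental cells in J82 (circles) and RT-112 (squares) for the 10 named genes whose change differed between the lines; bars are the standard error. FOS, JUNB, CDKN1A and ID1 rose in J82 and lay between -0.16 and 0.44 in RT-112, and CDH1 fell in J82 and lay at -0.05 in RT-112.

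Of the immediate-early list, 8 of 31 genes were called higher in RT-112 CD44 High, beside 0.249% of all genes tested there, with a median of 0.46, and 1 of 27 NF-kB genes was, with a median of 0.30. The integrin and p53 medians in RT-112 were 0.06 and -0.30, against 0.37 and 0.48 in J82, and that of the histones was -0.17. Only single genes, and not these medians, were tested for a difference between the lines.

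Genes that fell tended to be long. Their median genomic length in the RefSeq table was 49.6 kb, against 29.2 kb for genes that rose and 24.3 kb for all genes matched. With genes split into 5 equal groups by length, 2.44% of the longest group fell and 0.75% to 1.27% of the others. The share that rose was also highest in the longest group (2.05%) and lowest in the shortest (1.27%), so that long genes were called more often in both directions. The median log2 fold change of the longest group was 0.01.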

How the data were processed

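Total RNA of J82 and RT-112 cells was extracted with a column kit and sent out for sequencing, per the labels' protocols. The authors deposited raw counts per gene symbol; the submitters' processing notes name HISAT2, StringTie and GRCh37, without versions, and the annotation, strand setting and library type are not given in the sources used here. Every column matched 1 sample by its title (0 not used). The tests used edgeR 4.0.16 (under R 4.3.3) with filterByExpr, TMM scaling and quasi-likelihood F-tests with group as the only term on the 12 J82 libraries, two-sided, with Benjamini-Hochberg adjustment and calls at an adjusted p of 0.05. The difference between the lines was an interaction contrast over 24 libraries. CPM use the TMM library sizes; per-library medians of lists and chromosomes use log2(CPM + 0.5).

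Named genes are CD44, the 12 largest increases and 12 largest decreases among calls (average log2 CPM of at least 2, groups without overlap, leaving out small noncoding RNAs, LOC symbols and listed histones), and called genes of the lists; others are given to describe a list. The members and lists were chosen with earlier results of these data known. No list was tested as a set. Some genes that the rule or the lists hold are counted but not reported here by name. Symbols were matched to RefSeq (GRCh38.p14; 15340 of 15951), used for chromosome, order, length and promoter sequence only.

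Replicates differed beyond sampling noise (chi-square per degree of freedom 6.03 to 20.7). In simulated data for this comparison (15672 genes) edgeR recovered 64% of genes changed by 1 and 92% of those changed by 2 on the log2 scale, and called 2 unchanged genes. DESeq2 recovered 78% and 96% and called 26 unchanged genes. The simulation gave each gene the same spread in every group and placed changes in well-counted genes only. The real groups differed in spread, so that these shares need not hold for them. Alternatives were other scalings, filters, libraries, the DESeq2 1.42.0 Wald test, a replicate block, a prior count of 2 and leaving out each library. Figures were drawn with matplotlib.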

Additional observations from a re-analysis of the deposited data

Results flagged for a closer look

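The change from parental to CD44 High differed between J82 and RT-112, by an interaction test over 24 libraries, in 42 of 17438 genes. Some of these had a group mean of 0 CPM, as given above. Of the 42, 10 are among the genes named above. The difference (J82 minus RT-112, log2 scale) was -2.25 for CDH1, 2.04 for FOS, 1.71 for JUNB, 1.65 for CDKN1A, -1.84 for H3C3, 1.37 for ID1, 1.33 for IGFBP2, 0.99 for DUSP6, 0.94 for AKR1C1 and -0.65 for CCDC80. CDH1, FOS, JUNB and AKR1C1 passed in each of the 19 alternatives run for them. CCDC80, DUSP6 and IGFBP2, whose adjusted p-values were 0.0480, 0.0480 and 0.0413, lost their call in 14, 12 and 12 of those alternatives, H3C3 in 7, and CDKN1A and ID1 in 6 each. DUSP6 was called higher in both lines (1.65 in J82 and 0.66 in RT-112). H3C3 is nearly identical to other histone genes and AKR1C1 to other members of its family, so that their counts are uncertain.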

How the results depend on the processing

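Of 122 named and listed genes followed through 13 to 15 alternatives each, 43 kept their call in every one run for them, 51 lost it only when 1 library was left out, and none changed direction. The 469 calls (273 higher, 196 lower) became 900 (509 and 391) with DESeq2 and 1350 (717 and 633) in the fit of only the 6 libraries compared; of these, 464 and 467 were among the 469. The fit of all 24 libraries called 489, of which 321 were among the 469. Of the genes followed, 19 lost their call there: ABCB1, ADM, BST2, CEBPB, COL3A1, DUSP10, FHL1, GSTM3, IGFBP6, LRIG1, MCM3, NRG1, RFLNA, SIM1, SNORD10, TLL1, TRAF1, UGT1A7 and VIM. With the replicate block, 686 genes were called, 374 higher and 312 lower. The libraries were treated as sharing only a number, since the correlations of same-numbered deviations were 0.0286, 0.0586 and 0.0790; each CD44 High library did correlate best with its own number, which is a hint from the data and not from the design. Leaving out 1 library gave 122 (without parental replicate 1) to 349 calls, 74 to 199 higher and 48 to 150 lower, and CD44 changes of 0.63 to 0.79, none of them called; the cause was not tested. The 42 genes that differed between the lines became 69 with a mean of at least 50 counts, 226 with DESeq2, 106 in the fit of the 12 CD44 High and parental libraries, 40 with the replicate block, and 12 to 109 without 1 library (highest without RT-112 CD44 High replicate 3). Upper-quartile scaling put the median of all genes at -0.0041, beside 0.003. Counts limit genes under about 1 CPM most: 11 genes called higher and 7 called lower had a group mean below it.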
